A study of Mus musculus with 12 samples.

Results

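The Stag3 knockout lines KO1 and KO2 of mouse germline stem cells (GSCs) were set against each other. The comparison took all 4 knockout libraries, 2 of each line, out of 12 libraries in the series, and 2 wild-type (WT) GSC libraries served as a level to read the lines against. All 6 cultured libraries came from the cell line that the labels call Acrosin-EGFP; beta-Actin-EGFP (AAG), so both knockout lines and WT carried these transgenes. The 6 remaining libraries, from germ cells of the testis at 3 stages, were not used. RNA was read with SC3-seq, a method that counts reads from the 3' ends of amplified cDNA. The sources used here do not give how Stag3 was altered, whether each knockout line is 1 clone or whether the 2 libraries of a line are separate cultures. The p-values therefore speak of the spread between these libraries only, which may be technical.

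GSCs are spermatogonial stem cells kept in culture, where they divide without entering meiosis. Cohesin is a ring-shaped protein complex that holds sister chromatids together and shapes chromatin loops, and STAG3 is the STAG subunit of cohesin best known from meiotic chromosomes. Many genes of the male germline, among them several X-linked families such as the MAGE antigens, are silent in most other tissues, and DNA methylation of their promoters is one of the known means of that silencing.

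Total counts were 3887863 and 3312252 in the KO1 libraries, 4232035 and 4149814 in KO2, and 4159038 and 4596607 in WT. Levels are given in RPM, the reads of a gene per 1000000 reads that fell on non-mitochondrial genes, and a count of 0 in 1 library allows up to 0.748 to 1.05 RPM. Such floors and all intervals cover counting error only. Mitochondrial genes took 8.82% to 10.5% of gene counts. Over the 11890 genes tested, the root mean square log2 difference between libraries was 0.426 within KO1 and 0.387 within KO2, 0.461 to 0.474 between a KO1 and a KO2 library, and 0.592 to 0.643 between a knockout and a WT library. The lines thus stood apart by little more than their own replicates did. All 14 listed markers of germ cells and spermatogonia were found in the libraries and tested, and their summed level was 3627 and 3743 RPM in KO1, 3390 and 3314 RPM in KO2, and 3745 and 4052 RPM in WT. In these bulk libraries, fewer cells of a kind and less RNA per cell cannot be told apart.

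Stag3 itself differed between the lines. It spans bases 138272514 to 138312397 of chromosome 5 in GRCm38.p6 and overlaps Gal3st4 and Gpc2 in the annotation. Stag3 had 294.6 and 304.4 RPM in KO1, 137 and 152 RPM in KO2, and 385 and 420.4 RPM in WT. Both KO1 libraries lay above both KO2 libraries and below both WT libraries. The log2 fold change of KO1 over KO2 was 1.05 ± 0.09 (SE of the fit, adjusted p = 3.27e-16, edgeR quasi-likelihood test with Benjamini-Hochberg adjustment). Gpc2, the overlapping gene that was tested, did not pass the test (log2 fold change 0.13, adjusted p = 0.898). RNA of Stag3 was therefore still counted in both lines, and these counts are no check of the knockouts, since a read near the 3' end need not touch the altered bases. Stag3 passed in each of the 6 fits that left out 1 library, with log2 fold changes of 0.98 to 1.12.

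Between the lines, 99 of 11890 genes changed, which is 0.833% of the genes tested. Of these, 65 were higher in KO1 (0.547%) and 34 were lower (0.286%). The median fold was 2.13 among the genes that rose and 1.89 among those that fell, and 36 and 14 of them passed a fold of 2. All 99 had libraries that did not overlap between the lines, which held for 41.0% of all genes tested. The median log2 fold change of all genes was at 0.00, with quartiles at -0.16 and 0.16. When each library was scaled by its ERCC spike-in RNA, the median of all genes moved to -0.16 and the split became 27 higher and 46 lower. DESeq2 called 29 genes higher and 6 lower. Among genes named below, it did not call Tex19.1, Tex12, Il18, Taf7l, Mageb18, Rhox7a, Kdm5c, Tmsb4x, Serpine2, Krt18, Ggh, Zfp42, Shisa5, Vim, Slc2a5 and Myo7a, all higher in KO1, or Myof, Rpl38, Rps28, Rps27l, Aurkc and the 11 genes grouped with Atp2b4, all lower.

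The count rests on few libraries. Without KO1 replicate 1 it was 43, without KO1 replicate 2 it was 41, without KO2 replicate 1 it was 45 and without KO2 replicate 2 it was 42. Without WT replicate 1 it was 189 and without WT replicate 2 it was 185, and all 99 genes remained in both. A fit that left out 1 knockout library kept 38 to 43 of the 99. None of the 99 turned its direction in any of the 17 alternative settings. Calls held through all 6 fits without 1 library for 25 genes. These were Stag3, Gm773, Tktl1, Tex19.1, Tex12, Kit, Morc1, Dmrtc2, Magea8, Magea5, Xlr5b, 4930550L24Rik, Gm6880, H19, Spp1, S100a6, Rpl39l, Rpl10l, Rpl22l1, Acta2, Rapsn and Mtx2, which were higher in KO1, and COX1, Nid1 and Mageb4, which were lower.

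**Figure D1:**
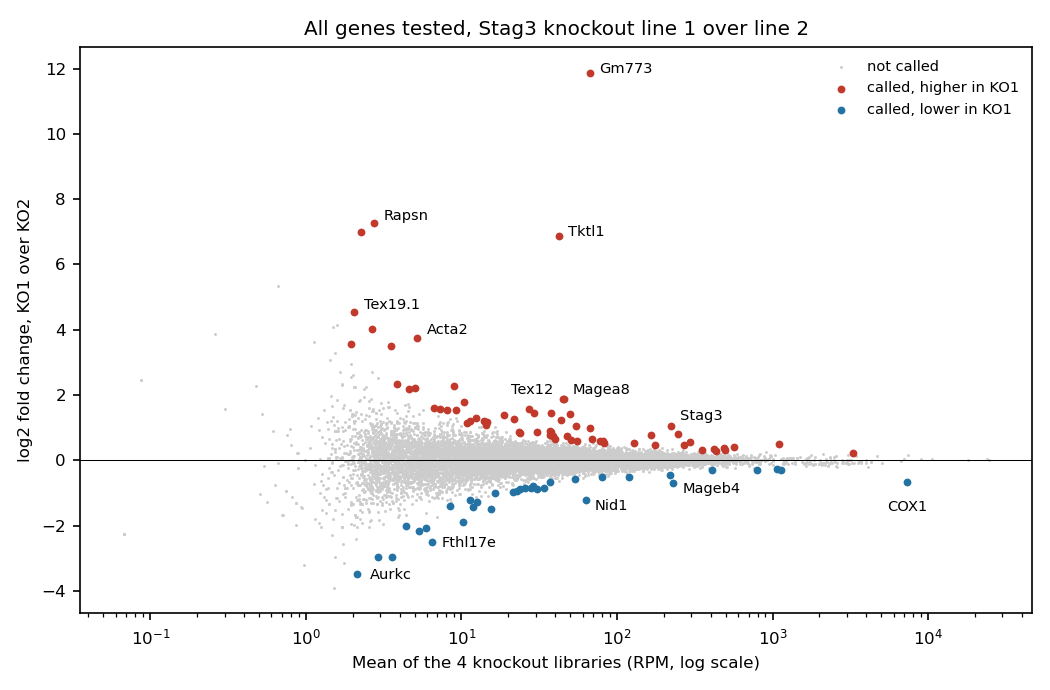
Log2 fold change of KO1 over KO2 (vertical axis) against the mean level in the 4 knockout libraries in RPM (horizontal axis, log scale) for the 11890 genes tested. Red points are the 65 genes higher in KO1, blue points the 34 genes lower in KO1 and grey points genes that did not pass; the fitted fold of a gene with no counts in a line, such as Gm773 and Rapsn, depends on the prior count and is not a size.

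Gm773 and Tktl1 were present in KO1 and at or near 0 in KO2. They were the only genes of those tested with a mean under 1 RPM in one line and at least 10 RPM in the other. Both lie on the X chromosome, Gm773 from 56189827 to 56212886 and Tktl1 from 74177259 to 74208498 (GRCm38.p6). Gm773 had 131 and 138 RPM in KO1, no count in either KO2 library, and 40.8 and 47.1 RPM in WT. Over the lines this was 839 counts in KO1 against 0 in KO2, so the level was at least 164-fold higher in KO1, with the floor of 3 counts per library averaged over KO2. The WT libraries lay between the lines. The annotation places Gm14627 over part of Gm773.

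Tktl1, which encodes a relative of transketolase of the pentose phosphate pathway, had 83.6 and 83.8 RPM in KO1, 0.54 and 0.832 RPM in KO2, and 92.6 and 77.8 RPM in WT. KO1 thus lay within the range of the WT libraries, while the KO2 values came from 5 counts in all against 524 in KO1, a ratio of 122 (95% counting interval 52.1 to 378). Both genes passed the edgeR test with every alternative setting (Gm773 adjusted p = 1.01e-43, Tktl1 adjusted p = 7.22e-37, Benjamini-Hochberg). Of the other 11 tested genes of the pentose phosphate pathway, none passed the test. Transketolase itself, Tkt, which was named after its values were seen, had 29.1 and 38.4 RPM in KO1, 29.2 and 30.5 RPM in KO2, and 24.2 and 26.2 RPM in WT.

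The sequence just before the annotated start of these X-linked genes is printed with those of Tex19.1 and Magea8, germline genes described next that also rose in KO1. Each window holds 250 bases, 5' to 3' on the strand of the gene, from the RefSeq promoter table of build GRCm38.p6, and capitals mark CG dinucleotides, the bases that DNA methylation uses. The windows are chrX:56212882-56213131 on the minus strand for Gm773, chrX:74177009-74177258 on the plus strand for Tktl1, chr11:121145893-121146142 on the plus strand for Tex19.1 and chrX:154995851-154996100 on the minus strand for Magea8.
Gm773: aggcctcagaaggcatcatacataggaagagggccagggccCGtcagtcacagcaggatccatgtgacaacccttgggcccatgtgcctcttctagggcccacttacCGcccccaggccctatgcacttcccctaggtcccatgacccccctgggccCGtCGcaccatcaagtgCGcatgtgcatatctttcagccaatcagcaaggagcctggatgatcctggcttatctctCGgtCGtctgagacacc
Tktl1: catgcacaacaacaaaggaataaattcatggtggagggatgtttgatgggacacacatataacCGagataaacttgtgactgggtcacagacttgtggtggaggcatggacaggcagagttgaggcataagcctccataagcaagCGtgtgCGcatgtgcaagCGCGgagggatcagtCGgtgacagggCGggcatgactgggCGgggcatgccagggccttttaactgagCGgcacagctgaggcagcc
Tex19.1: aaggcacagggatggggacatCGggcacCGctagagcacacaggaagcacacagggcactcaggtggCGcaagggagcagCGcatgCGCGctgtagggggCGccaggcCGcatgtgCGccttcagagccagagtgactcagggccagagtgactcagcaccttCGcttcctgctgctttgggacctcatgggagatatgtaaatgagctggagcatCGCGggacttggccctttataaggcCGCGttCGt
Magea8: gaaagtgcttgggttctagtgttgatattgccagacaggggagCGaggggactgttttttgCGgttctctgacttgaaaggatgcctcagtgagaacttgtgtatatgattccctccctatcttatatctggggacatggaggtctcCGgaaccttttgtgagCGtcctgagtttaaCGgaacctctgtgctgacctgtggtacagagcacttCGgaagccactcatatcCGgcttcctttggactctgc
The windows hold 7 CG dinucleotides at Gm773, 9 at Tktl1, 15 at Tex19.1 and 7 at Magea8. For comparison, the median was 17 over the 9637 tested genes found in the table and 11 over the 408 of them on the X chromosome. DNA methylation was not measured here.

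Germline genes whose promoters are known to be methylated outside the germline were higher in KO1 in 8 of 34 tested members, and none was lower. Over all genes tested, 0.547% were higher and 0.286% lower. This list holds genes already known to differ between the lines, so its count is not independent evidence of a direction. Its median log2 fold change was 0.18, against 0.00 over all genes. Of its members, 26 of 34 had a positive log2 fold change, and 17 with ERCC scaling. With that scaling the count was 4, and the median was 0.01 where that of all genes was -0.16.

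Tex19.1, a mammalian germ cell factor that restrains retrotransposons, had 4.41 and 3.49 RPM in KO1, 0.27 and 0 RPM in KO2, and 36.8 and 42.1 RPM in WT. These are 25 counts in KO1 against 1 in KO2, a ratio of 29.2 whose 95% counting interval runs from 4.78 to 1198. It passed the edgeR test (adjusted p = 0.000256, Benjamini-Hochberg), and DESeq2 did not call it (adjusted p = 0.239). Both lines were far below WT, and KO1 stood a little above the floor. Tex12, a protein of the central element of the synaptonemal complex, had 49.7 and 60.4 RPM in KO1, 15.9 and 24.7 RPM in KO2, and 53.1 and 103 RPM in WT. Its log2 fold change was 1.43 ± 0.20 (adjusted p = 9.54e-08, edgeR, Benjamini-Hochberg), and DESeq2 did not call it (adjusted p = 0.32). The annotation places Il18 over Tex12, and the strand of the counting is not stated, so reads of the pair cannot be told apart; Il18 was also higher in KO1 (log2 fold change 1.21 ± 0.32, adjusted p = 0.0398). Il18 lost the call without KO1 replicate 1 (adjusted p = 0.191), KO1 replicate 2 (0.28) or KO2 replicate 2 (0.578), with ERCC scaling (0.151) and in DESeq2 (0.469).

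Among the other members that rose, Ddx4, Rpl10l, Stk31 and Taf7l did so by smaller folds at higher levels. Ddx4, the VASA RNA helicase of germ cells, had 520.5 and 577 RPM in KO1, 415 and 426 RPM in KO2, and 556 and 629.7 RPM in WT (log2 fold change 0.38 ± 0.08, adjusted p = 0.00158, edgeR, Benjamini-Hochberg). Rpl10l, an autosomal retrogene of the X-linked ribosomal protein gene Rpl10, had 341 and 365 RPM in KO1, 229.5 and 250.2 RPM in KO2, and 303 and 285 RPM in WT (log2 fold change 0.56 ± 0.09, adjusted p = 3.46e-06). Stk31 and Taf7l, named after their values were seen, had log2 fold changes of 0.45 ± 0.09 and 0.31 ± 0.08 (adjusted p = 0.000528 and 0.0219). Of these 4 genes, Rpl10l passed in all 6 fits without 1 library. Ddx4 and Stk31 lost the call without KO1 replicate 2 (adjusted p = 0.259 and 0.0797), KO2 replicate 1 (0.195 and 0.0615) or KO2 replicate 2 (0.0906 and 0.08), and Taf7l lost it without any one knockout library (adjusted p of 0.123 to 0.512). With ERCC scaling none of these 4 genes passed. The most abundant members that did not pass were Dazl, with 1803 and 1921 RPM in KO1, 1683 and 1664 RPM in KO2 and 1537 and 1786 RPM in WT, then Slc25a31 (log2 fold change 0.12, adjusted p = 0.646) and Mael (0.16, adjusted p = 0.481).

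**Figure D2:**
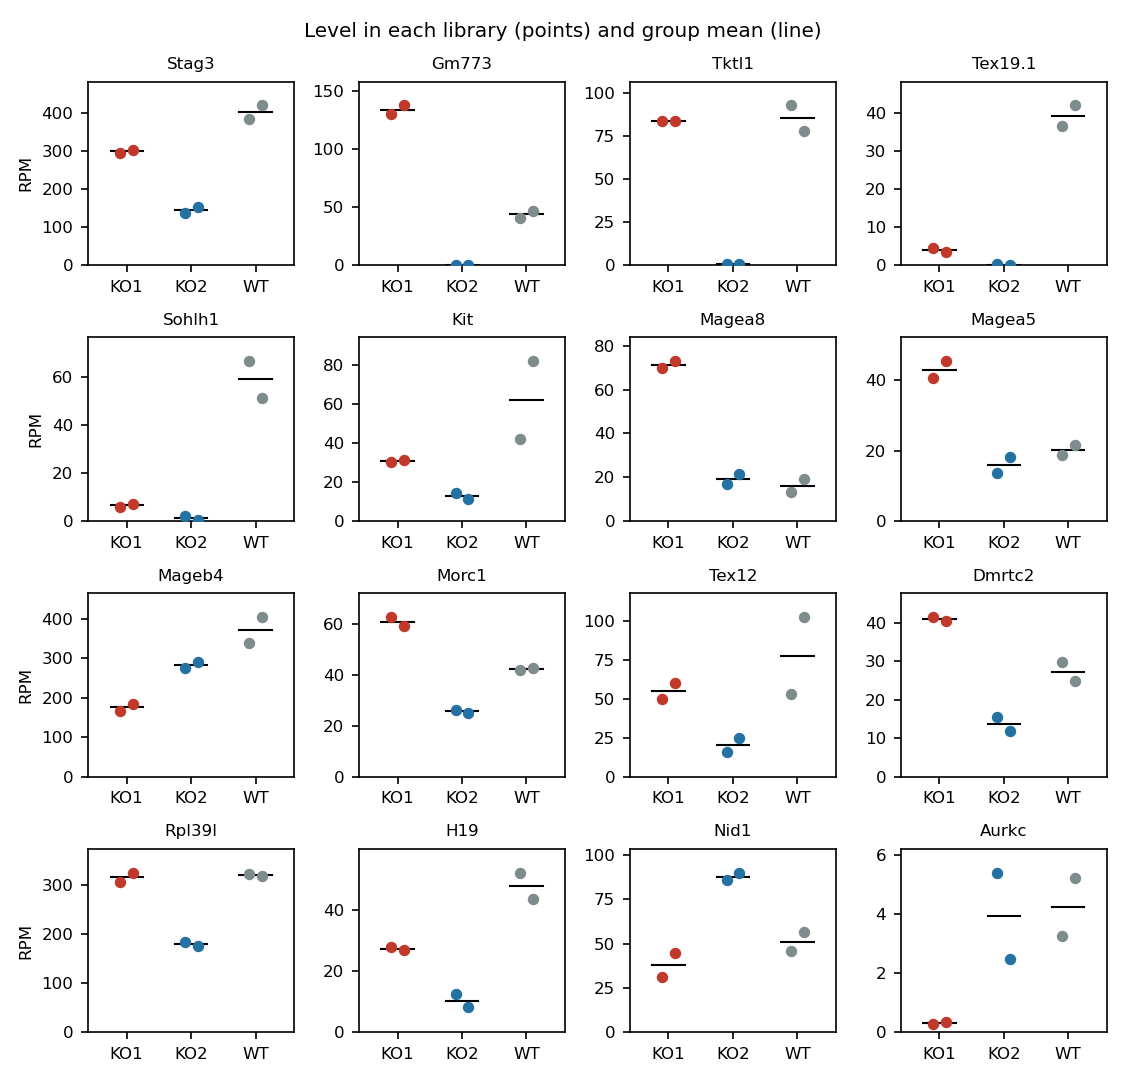
Level in RPM (vertical axis) of 16 genes in each library, with points for libraries and lines for the means of the 2 libraries of KO1, KO2 and WT. Gm773 and Tktl1 are at or near 0 in both KO2 libraries, KO1 lies between KO2 and WT for Stag3, Tex19.1, Sohlh1 and Kit, and above both for Magea8, Magea5, Morc1 and Dmrtc2.

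Genes of spermatogonial differentiation rose in KO1 in 3 of 13 tested members, and none fell (0.547% and 0.286% of all genes tested). The median of the list was 0.14 on the log2 scale. With ERCC scaling it was -0.02, where that of all genes was -0.16, and 2 members passed. Kit, the receptor of KIT ligand that marks differentiating spermatogonia, had 30.0 and 31.4 RPM in KO1, 14.6 and 11.1 RPM in KO2, and 42.2 and 82.0 RPM in WT (log2 fold change 1.25 ± 0.23, adjusted p = 0.000256, edgeR, Benjamini-Hochberg). Sohlh1, a transcription factor of early spermatogonial differentiation, had 5.88 and 6.98 RPM in KO1, 2.16 and 0.277 RPM in KO2, and 66.4 and 51.3 RPM in WT (log2 fold change 2.34 ± 0.50, adjusted p = 0.0025). Stra8, a target of retinoic acid needed for meiotic entry, had 201 and 208 RPM in KO1, 144.5 and 149 RPM in KO2, and 205 and 203 RPM in WT (log2 fold change 0.48 ± 0.10, adjusted p = 0.00162). For Stra8 the KO1 level was that of WT, whereas for Sohlh1 both lines lay far below WT. Kit passed in all 6 fits without 1 library. The call of Sohlh1 was lost without KO2 replicate 2 (adjusted p = 0.322), and that of Stra8 without KO1 replicate 2 (0.0813), KO2 replicate 1 (0.159) or KO2 replicate 2 (0.0724) and with ERCC scaling (0.34).

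Other abundant members of that list did not pass. Dmrt1, a transcription factor of the testis, had 391 and 383 RPM in KO1, 338 and 362 RPM in KO2, and 568 and 572 RPM in WT. Ccnd2, cyclin D2, had 301 and 320.5 RPM in KO1, 311 and 325 RPM in KO2, and 208 and 203 RPM in WT. Sohlh2, the partner of SOHLH1, had 221 and 196 RPM in KO1, 209 and 213 RPM in KO2, and 181 and 189.9 RPM in WT. The replicates of the lines overlapped for Ccnd2 and Sohlh2, and those of Dmrt1 did not (log2 fold change 0.14, adjusted p = 0.599).

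Of the 26 tested members of the list for undifferentiated spermatogonia, none passed the edgeR test, 4 had an unadjusted p under 0.05, and DESeq2 called none. The median was -0.05. Foxo1, a forkhead factor of the stem cells, had 169 and 171 RPM in KO1, 178 and 151 RPM in KO2, and 205 and 224 RPM in WT. Etv5, an ETS factor downstream of GDNF and FGF, had 182 and 158 RPM in KO1, 196 and 191 RPM in KO2, and 61.5 and 52.8 RPM in WT. Uchl1, a deubiquitinating enzyme that marks spermatogonia, had 397 and 345 RPM in KO1, 321 and 325 RPM in KO2, and 805 and 778 RPM in WT. For each of these 3 genes the lines lay closer to each other than to WT. Nanos2, an RNA-binding protein of the stem cell state named after its values were seen, had 7.36 and 8.73 RPM in KO1, 13.8 and 15.8 RPM in KO2, and 12.5 and 10.2 RPM in WT, and did not pass (log2 fold change -0.88 ± 0.32, adjusted p = 0.277). None of the 20 tested genes of GDNF and FGF response passed either, with a median of -0.06 and 3 genes at an unadjusted p under 0.05.

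The piRNA pathway protects the male germline from transposons. The list made for it also takes in Tex19.1 and Morc1, which are named here as genes that restrain retrotransposons and not as parts of the pathway. Of its 25 tested genes, 3 rose in KO1, namely Tex19.1, Ddx4 and Morc1, and none fell (0.547% and 0.286% of all genes tested). The list median was 0.16, and 0.00 with ERCC scaling, where that of all genes was -0.16. With that scaling 2 members passed, Tex19.1 and Morc1, and Ddx4 did not (adjusted p = 0.479, edgeR). Morc1, an ATPase needed to silence retrotransposons in male germ cells, had 63.0 and 59.4 RPM in KO1, 26.5 and 24.97 RPM in KO2, and 42.2 and 42.9 RPM in WT. KO1 lay above WT and KO2 below it, with little spread within each group (log2 fold change 1.25 ± 0.17, adjusted p = 9.54e-08, edgeR, Benjamini-Hochberg, past the threshold in all 6 fits without 1 library). Mael, Tdrkh and Mov10l1, abundant factors of the pathway, did not pass (log2 fold changes 0.16, 0.14 and 0.20; adjusted p = 0.481, 0.675 and 0.491).

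Among the 33 tested genes on the list for meiotic prophase, Tex12 alone passed, where 0.833% of all genes tested did. The count holds for this list only, since called genes such as Stag3 and Dmrtc2 were not on it. The list median was 0.20, and 0.04 with ERCC scaling, under which the median of all genes was -0.16. Both libraries of KO1 lay above both of KO2 for 16 members and below for 1, each of which held for 20.5% of all genes tested, and 24 members had a positive log2 fold change (17 with ERCC scaling). Fitted on the 4 knockout libraries alone, 5 members passed, all higher in KO1, and DESeq2 called none. Syce2, a synaptonemal complex protein and the most abundant member, had 365 and 373 RPM in KO1, 328 and 307 RPM in KO2, and 353 and 348 RPM in WT (adjusted p = 0.325). Sycp3, which forms the lateral element, had 231 and 269 RPM in KO1, 212 and 236 RPM in KO2, and 287.5 and 372 RPM in WT (adjusted p = 0.63). Dmrtc2, a DM-domain factor needed for meiotic prophase in male mice and outside that list, rose by a larger fold. It had 41.5 and 40.5 RPM in KO1, 15.4 and 11.9 RPM in KO2, and 29.7 and 24.9 RPM in WT (log2 fold change 1.58 ± 0.22, adjusted p = 9.54e-08). Lypd4 and Gm38966 overlap Dmrtc2 in the annotation.

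The MAGE, XLR and SSX families are multigene families of the X chromosome expressed in the germline. Their list held 3 genes that rose and 1 that fell among 18 tested. Of all genes tested, 0.547% rose and 0.286% fell. The median of the list was 0.13. With ERCC scaling it was -0.03, where that of all genes was -0.16, and 2 members rose and 1 fell. The list did not hold Xlr5b, an XLR gene named after its values were seen, which also rose. Xlr5b had 13.5 and 16.1 RPM in KO1, 4.05 and 1.94 RPM in KO2, and 8.17 and 10.2 RPM in WT. Its log2 fold change was 2.28 ± 0.40 (adjusted p = 6.78e-05, edgeR, Benjamini-Hochberg), and DXBay18 overlaps it. Magea8 had 69.7 and 73.0 RPM in KO1, 17.01 and 21.6 RPM in KO2, and 13.1 and 18.9 RPM in WT. Its neighbour Magea5, which starts 57211 bases from the end of Magea8 with no tested gene between, had 40.6 and 45.4 RPM in KO1, 13.5 and 18.03 RPM in KO2, and 18.8 and 21.7 RPM in WT. Here KO2 stood near WT and KO1 above both, unlike at Tktl1, where KO1 stood near WT. The log2 fold changes were 1.88 ± 0.19 for Magea8 and 1.44 ± 0.22 for Magea5 (adjusted p = 2.14e-13 and 1.07e-06, edgeR, Benjamini-Hochberg).

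Mageb4 went the other way, with 166 and 185 RPM in KO1, 276 and 292 RPM in KO2, and 339 and 405 RPM in WT (log2 fold change -0.69 ± 0.09, adjusted p = 2.96e-08). Mageb18 had 20.01 and 15.4 RPM in KO1, 4.59 and 9.99 RPM in KO2, and 7.9 and 7.23 RPM in WT (log2 fold change 1.28 ± 0.33, adjusted p = 0.0281). Its call was lost without KO1 replicate 1 (adjusted p = 0.451), KO1 replicate 2 (0.0575) or KO2 replicate 1 (0.758) and with ERCC scaling (0.095). Magea8, Magea5 and Mageb4 held their calls in all 6 fits without 1 library. Maged1, the most abundant member, had 500.5 and 474 RPM in KO1, 437 and 462 RPM in KO2, and 495 and 515 RPM in WT, and did not pass (adjusted p = 0.69). Reads of such near-identical paralogs can be split between copies in the counting, so values of single members are uncertain.

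In the Rhox cluster of X-linked homeobox genes, 1 of 6 tested genes rose, against 0.547% of all genes tested. Rhox7a had 27.1 and 33.5 RPM in KO1, 16.2 and 16.9 RPM in KO2, and 31.9 and 29.4 RPM in WT (log2 fold change 0.86 ± 0.22, adjusted p = 0.0303). It lost the call without any one knockout library (adjusted p of 0.0628 to 0.455) and with ERCC scaling (0.2). All 6 genes of the cluster had positive log2 fold changes, and 3 of the 6 with ERCC scaling, where the median of all genes was -0.16. None of the 10 tested Hox genes, all of the Hoxb cluster, passed the edgeR test with TMM scaling of the 6 libraries. Of these genes, 3 had an unadjusted p under 0.05 and DESeq2 called none. With ERCC scaling 1 of the 10 was called lower in KO1, and the 4 knockout libraries alone also gave 1 lower. Their median was -0.35, and both KO1 libraries lay below both KO2 libraries for 6 of them and above for 1, against 20.5% of all genes each way. Hoxb3, named after its values were seen, came closest, with 9.71 and 7.33 RPM in KO1, 16.2 and 20.5 RPM in KO2, and 10.1 and 13.7 RPM in WT (log2 fold change -1.09 ± 0.30, adjusted p = 0.0569).

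**Figure D3:**
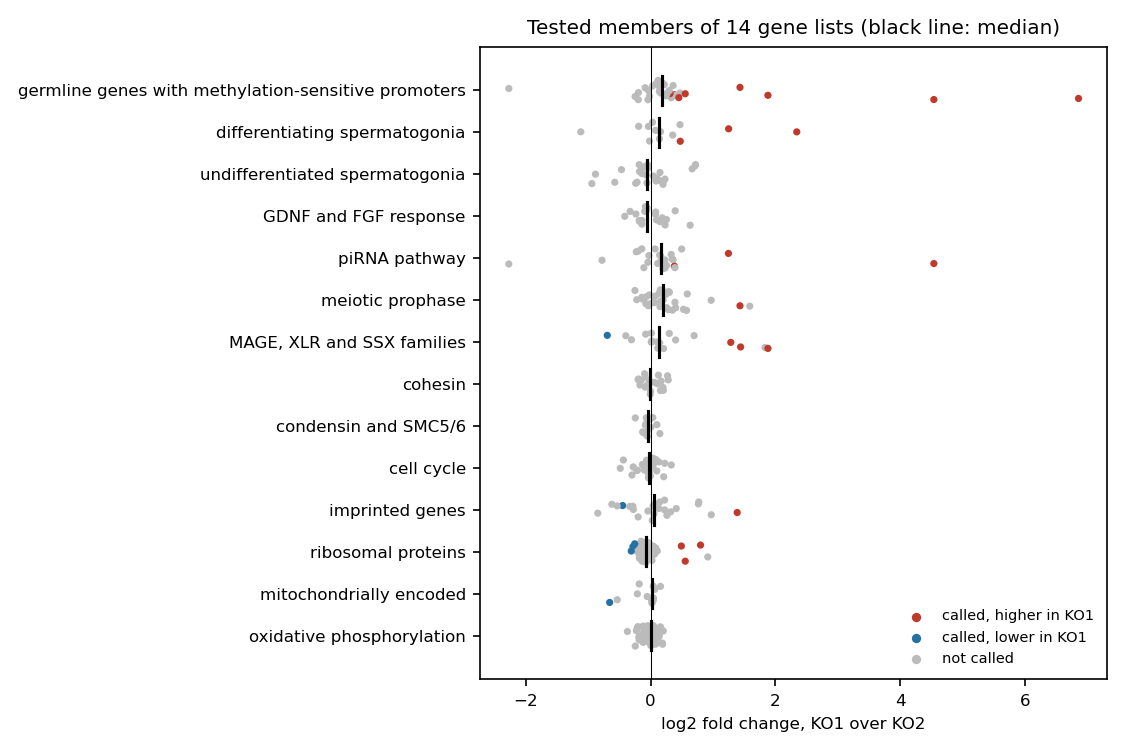
Log2 fold change of KO1 over KO2 (horizontal axis) for the tested members of 14 gene lists (vertical axis), 1 point per gene, with a black line at each list's median. Red points rose in KO1, blue points fell and grey points did not pass. The called genes of the germline, differentiation, piRNA and meiotic lists all lie on the right. The cohesin, condensin and cell cycle lists hold no called gene. The lists were chosen with earlier results known, and Aurkc, a kinase of meiosis outside these lists, fell in KO1.

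By position, the X chromosome held 15 of the 99 genes, 12 higher and 3 lower in KO1, or 3.22% of the 466 X-linked genes tested. On the autosomes the share was 0.166% to 1.33%. The X-linked genes that rose were Gm773, Tktl1, Xlr5b, Magea8, 4930550L24Rik, Magea5, Gm6880, Mageb18, Kdm5c, Tmsb4x, Rhox7a and Taf7l, and those that fell were Asb9, Mageb4 and Fthl17e; all are listed, whether or not the rule for named genes took them. The median of all X-linked genes was 0.04 and those of the autosomes lay between -0.03 and 0.03. Thus the X-linked genes as a whole did not shift by the size of the called ones. Medians of 40 neighbouring genes ranged from -0.21 on chromosome 7 to 0.19 on chromosome 8, and 99.97% of the 11087 such windows lay within 0.2 of 0.

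Among these X-linked genes, Kdm5c, a histone H3 lysine 4 demethylase, had 18.2 and 22.3 RPM in KO1, 8.91 and 9.16 RPM in KO2, and 12.5 and 12.2 RPM in WT (log2 fold change 1.16 ± 0.29, adjusted p = 0.0229, edgeR, Benjamini-Hochberg). Tmsb4x, thymosin beta 4, which binds actin monomers, had 42.7 and 54.5 RPM in KO1, 27.3 and 24.97 RPM in KO2, and 31.9 and 29.9 RPM in WT (log2 fold change 0.89 ± 0.19, adjusted p = 0.00205). Both genes lost the call with ERCC scaling (adjusted p = 0.129 and 0.0909). Kdm5c lost it without any one knockout library (0.0854 to 0.382), and Tmsb4x without KO1 replicate 2 (0.252) or KO2 replicate 2 (0.109). 4930550L24Rik, named after its values were seen, had 69.4 and 71.9 RPM in KO1, 17.8 and 20.8 RPM in KO2, and 47.4 and 43.6 RPM in WT, and passed under every alternative setting run. Gm6880, also named after its values were seen, lies 271619 bases from Tktl1, with 15 tested genes between them, and had 68.0 and 77.2 RPM in KO1, 25.6 and 28.6 RPM in KO2, and 38.4 and 46.9 RPM in WT. WT lay between the lines for 4930550L24Rik and Gm6880.

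**Figure D4:**
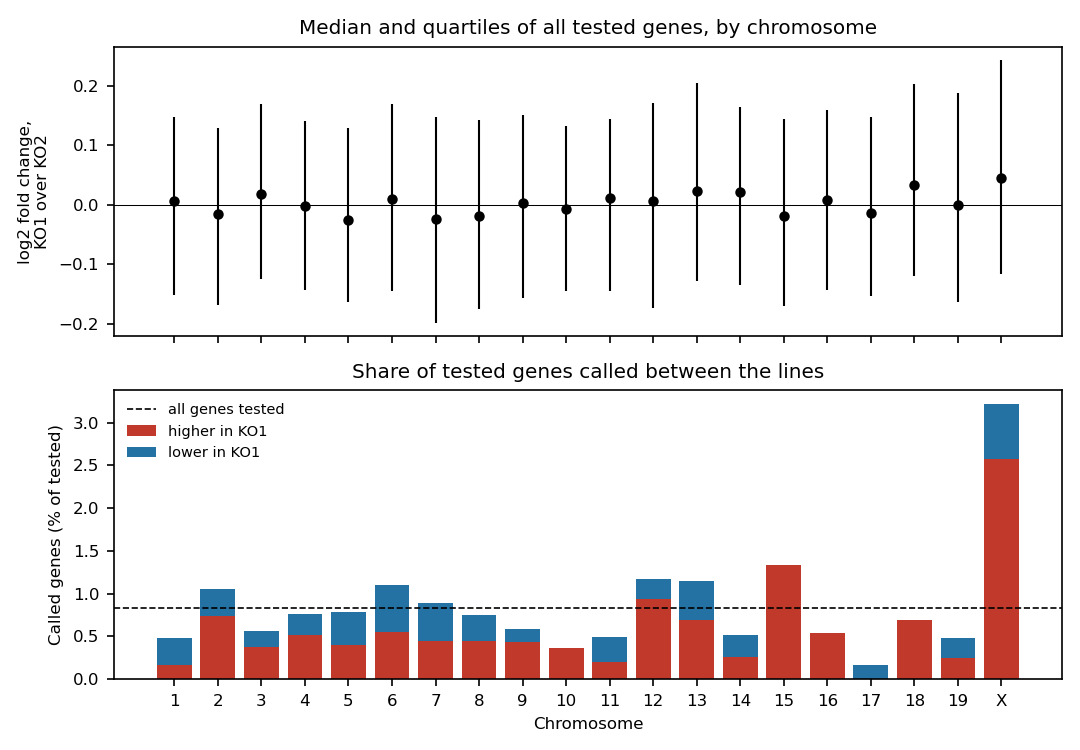
Upper panel, median (points) and quartiles (lines) of the log2 fold change of KO1 over KO2 for all tested genes of each autosome and the X chromosome; lower panel, share of tested genes called higher (red) or lower (blue) in KO1, with the 0.833% of all genes as a dashed line. The share on the X chromosome, 3.22%, is above that of every autosome, while its median, 0.04, is close to theirs.

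Of 24 tested imprinted genes, 1 was higher in KO1, H19, 1 was lower, Gnas, and the others did not pass. Among all genes tested, 0.547% were higher and 0.286% lower. The median of the list was 0.06, and -0.10 with ERCC scaling, where that of all genes was -0.16. H19, a maternally expressed noncoding RNA, had 27.7 and 26.9 RPM in KO1, 12.4 and 8.32 RPM in KO2, and 52.0 and 43.4 RPM in WT (log2 fold change 1.39 ± 0.24, adjusted p = 4.27e-05, edgeR, Benjamini-Hochberg). Igf2, the growth factor gene next to H19 that is expressed from the paternal copy, had 32.1 and 34.6 RPM in KO1, 43.2 and 59.1 RPM in KO2, and 46.0 and 62.8 RPM in WT, and did not pass (log2 fold change -0.62 ± 0.18, adjusted p = 0.0663); it was named after its values were seen. H19 was thus highest in WT and lowest in KO2. Gnas, the locus of the stimulatory G protein alpha subunit, had 179 and 193 RPM in KO1, 251 and 255 RPM in KO2, and 167 RPM in both WT libraries (log2 fold change -0.45 ± 0.09, adjusted p = 0.00205). Its call was lost without KO1 replicate 1 (adjusted p = 0.19), KO2 replicate 1 (0.113) or KO2 replicate 2 (0.144), and Gnasas1 overlaps it.

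Spp1, S100a6 and Serpine2 also rose in KO1. Spp1, osteopontin, had 93.6 and 86.6 RPM in KO1, 38.3 and 51.6 RPM in KO2, and 44.6 and 47.1 RPM in WT. S100a6, a calcium-binding protein, had 75.6 and 71.9 RPM in KO1, 37.3 and 34.4 RPM in KO2, and 62.9 and 43.6 RPM in WT. For Spp1 the KO2 and WT libraries overlapped and KO1 lay above both, and both genes held in all 6 fits without 1 library (log2 fold changes 1.00 ± 0.15 and 1.04 ± 0.16, adjusted p = 1.2e-06 and 3.4e-06, edgeR, Benjamini-Hochberg). Serpine2, a serine protease inhibitor, had 42.7 and 55.2 RPM in KO1, 27.8 and 25.5 RPM in KO2, and 62.9 and 50.8 RPM in WT (log2 fold change 0.86 ± 0.18, adjusted p = 0.00183). It lost the call without KO1 replicate 2 (adjusted p = 0.25) or KO2 replicate 2 (0.0906) and with ERCC scaling (0.0908).

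Among the genes that fell in KO1, Nid1, which encodes nidogen of the basement membrane, was the one at the highest level with a fold over 2. It had 31.2 and 44.7 RPM in KO1, 85.6 and 89.9 RPM in KO2, and 45.7 and 56.3 RPM in WT (log2 fold change -1.22 ± 0.16, adjusted p = 1.16e-08, edgeR, Benjamini-Hochberg, past the threshold in all 6 fits without 1 library). It was the single called gene of 24 tested collagen, laminin and matrix genes, whose median was -0.07. Myof, a ferlin of the plasma membrane, had 10 and 5.93 RPM in KO1, 24.3 and 21.4 RPM in KO2, and 11.98 and 22.4 RPM in WT (log2 fold change -1.49 ± 0.29, adjusted p = 0.000729). Its call was lost without KO1 replicate 2 (adjusted p = 0.131). WT lay between the lines for both genes.

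The other named genes that fell had log2 fold changes between -0.97 and -0.52. They were Atp2b4, a calcium pump of the plasma membrane, Ikbkb, a kinase that activates NF-kappa B, Gba2, a glucosylceramidase, the transcription factor Pou2f2, Afp, the fetal serum protein alpha-fetoprotein, Tctn2 of the ciliary transition zone, the zinc finger gene Zfp704, Ripk3, a kinase of necroptosis, Asb9, C1ql1 and Abr. Afp averaged 19.9 ± 0.99 RPM in KO1, 36.2 ± 2.21 RPM in KO2 and 51.8 ± 7.66 RPM in WT (SD, n = 2 each; edgeR adjusted p = 0.00882). Ikbkb had 15.9 and 15.4 RPM in KO1, 25.4 and 34.96 RPM in KO2, and 14.4 and 16.4 RPM in WT (adjusted p = 0.0242). Afp was highest in WT, and Ikbkb was as low in WT as in KO1. Abr had 99.5 and 97.1 RPM in KO1, 145 and 135 RPM in KO2, and 85.8 and 67.5 RPM in WT (adjusted p = 0.01). Each of these 11 genes lost its call without at least 2 of the 4 knockout libraries, taken 1 at a time, and DESeq2 called none of them. Those adjusted p values reached 0.865 for Atp2b4 without KO2 replicate 1, 0.617 for Ikbkb without KO2 replicate 2, 0.701 for Gba2 without KO2 replicate 1 and 0.7 for Pou2f2 without KO1 replicate 2.

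Genes of the complex that Stag3 belongs to did not pass the test. Of 22 tested cohesin genes other than Stag3, none passed, none had an unadjusted p under 0.05, and DESeq2 called none; the median was -0.01. Stag1, the paralog of Stag3 named after its values were seen, had 173 and 159.9 RPM in KO1, 167 RPM in both KO2 libraries, and 167 and 185 RPM in WT. Rad21, the kleisin of mitotic cohesin, had 563 and 549.5 RPM in KO1, 508 and 555 RPM in KO2, and 524 and 595 RPM in WT. Smc1b, the meiotic SMC subunit, had 405 and 394.5 RPM in KO1, 358 RPM in both KO2 libraries, and 295 and 293.5 RPM in WT, and did not pass (log2 fold change 0.16, adjusted p = 0.545). The lines overlapped for Stag1 and Rad21, and their difference in Stag3 came with no called difference in another subunit. None of 14 genes of condensin and SMC5/6 passed (median -0.05, none at an unadjusted p under 0.05), and none of 31 cell cycle genes (median -0.03, 5 at an unadjusted p under 0.05).

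Of 83 tested ribosomal protein genes, 3 rose, Rpl39l, Rpl10l and Rpl22l1, and 3 fell, Rps28, Rpl38 and Rps27l. The shares that rose and fell over all genes tested were 0.547% and 0.286%. Rpl39l, a paralog of Rpl39 known from the testis, had 306 and 325 RPM in KO1, 185 and 177 RPM in KO2, and 323 and 319 RPM in WT (log2 fold change 0.80 ± 0.09, adjusted p = 3.51e-11, edgeR, Benjamini-Hochberg). Its KO1 level was that of WT. Rpl38 had 698 and 739 RPM in KO1, 877.5 and 869 RPM in KO2, and 783 and 742 RPM in WT (log2 fold change -0.28 ± 0.07, adjusted p = 0.0269). The list median was -0.07, and both KO1 libraries lay below both KO2 libraries for 52 of the 83 genes and above for 8, against 20.5% of all genes each way. Rps28, Rpl38 and Rps27l each lost the call without any one knockout library (adjusted p of 0.0868 to 0.795). With ERCC scaling the list had 1 gene higher and 1 lower, and its median was -0.24 where that of all genes was -0.16. Reads of ribosomal pseudogenes and paralogs can be shared in the counting, which makes these values uncertain.

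Of the 13 protein genes of the mitochondrial genome, 1 was called between the lines, COX1, against 0.833% of all genes tested. COX1, a catalytic subunit of cytochrome c oxidase, had 5573 and 5765 RPM in KO1, 8807 and 9038 RPM in KO2, and 3821 and 4075 RPM in WT. Its libraries did not overlap between any groups, and KO2 stood farthest from WT (log2 fold change of KO1 over KO2 -0.66 ± 0.06, adjusted p = 4.76e-15, edgeR, Benjamini-Hochberg, past the threshold in all 6 fits without 1 library). The most abundant of the other 12, ATP6, had 23990 and 25390 RPM in KO1, 23590 and 25050 RPM in KO2, and 22520 and 27820 RPM in WT. Log2 fold changes of these 12 ran from -0.53 for ND6 to 0.16 for ND4. Both KO1 libraries lay below both KO2 libraries for 4 of the 13 and above for 0, against 20.5% of all genes each way. An unadjusted p under 0.05 (edgeR) was found for 4 of the 13. Fitted on the 4 knockout libraries alone, 1 passed as higher in KO1 and 3 as lower. The tRNA gene TrnS1 overlaps COX1, and with ERCC scaling 2 of the 13 genes were lower. None of the 74 tested nuclear genes of oxidative phosphorylation passed (median 0.00, 8 at an unadjusted p under 0.05, DESeq2 none). In the fit of the 4 knockout libraries alone, 3 of the 74 were called lower in KO1 and 0 higher. Gapdh was the 1 called gene of 21 in glycolysis, with 1029 and 1001 RPM in KO1, 1281 and 1231 RPM in KO2, and 1246 and 1165 RPM in WT (log2 fold change -0.31 ± 0.07, adjusted p = 0.00624); it lost the call without any one knockout library (adjusted p of 0.104 to 0.519).

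**Figure D5:**
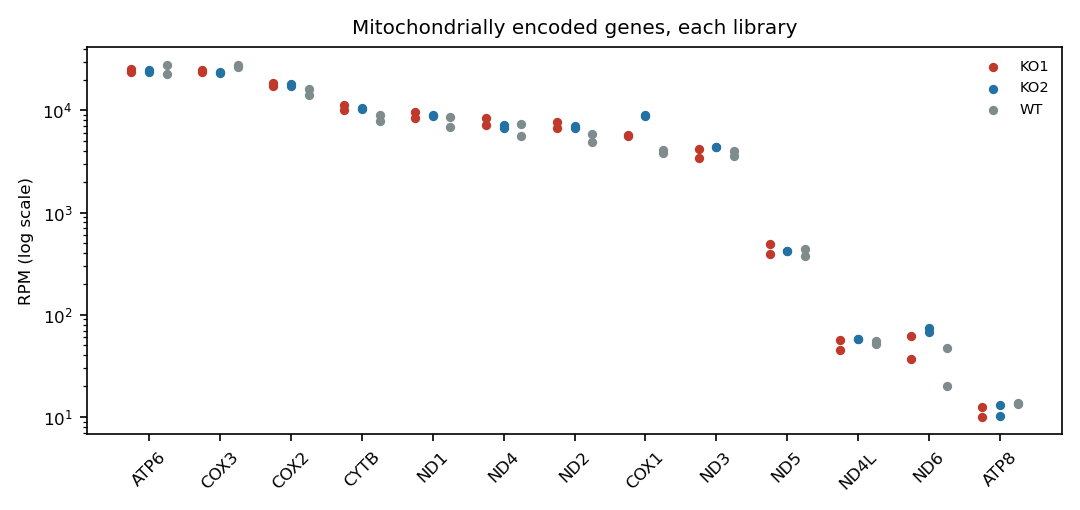
Level in RPM (vertical axis, log scale) of the 13 mitochondrially encoded protein genes in each library of KO1, KO2 and WT. COX1 is the gene called between the lines, with KO1 libraries at 5573 and 5765 RPM and KO2 libraries at 8807 and 9038 RPM, both above WT.

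A further 5 called genes, named after their values were seen, held 0 to 2 counts over one line, so they are given by counts. Rapsn, which clusters acetylcholine receptors at the synapse, had 34 counts in KO1 and none in KO2, at least 6.66-fold higher in KO1. Fam205c had 28 counts in KO1 and none in KO2, at least 5.49-fold higher. Slc2a5, a fructose transporter, had 31 counts in KO1 against 2 in KO2, a ratio of 18.1 (95% counting interval 4.6 to 156). Myo7a, an unconventional myosin, had 23 counts in KO1 against 2 in KO2 (13.4, interval 3.32 to 117). Aurkc, the Aurora kinase of meiosis, had 2 counts in KO1 against 29 in KO2, a ratio of KO2 over KO1 of 12.4 (interval 3.14 to 108). Rapsn passed in all 6 fits without 1 library. The others lost the call in some of them: Fam205c without either KO2 library (adjusted p = 0.0847 and 0.079), Slc2a5 without KO1 replicate 2 (0.174) or KO2 replicate 2 (0.295), Myo7a without KO1 replicate 1 (0.316) or either KO2 library (0.22 and 0.19), and Aurkc without either KO1 library (0.366 and 0.314) or KO2 replicate 1 (0.721).

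Of the 65 genes higher in KO1, the WT mean was nearer to KO1 for 46 and nearer to KO2 for 19, and of the 34 lower in KO1 it was nearer to KO1 for 15 and nearer to KO2 for 19, on the log2(RPM + 1) scale. Among the 65, the WT mean lay above both lines for 25, between them for 35 and below both for 5. In the 35, WT was nearer to KO1 in 21 and nearer to KO2 in 14. Stag3, Tktl1, Tex19.1, Sohlh1, Kit, H19, Ddx4 and Rhox7a were among the 25 with the WT mean on top. The KO1 and WT libraries overlapped, however, for Tktl1, Ddx4 and Rhox7a. Magea8, Krt18, Ggh, Zfp42 and Shisa5 were the 5 with the WT mean at the bottom, and of these the KO2 and WT libraries overlapped for all but Shisa5. For the 34 genes lower in KO1, WT lay above both lines for 10, between them for 17 and below both for 7. WT was nearer to KO1 in 8 of those 17 and to KO2 in 9. Over the 11791 tested genes that did not pass, WT lay above both lines in 32.8%, between them in 21.1% and below both in 46.1%. Called genes were picked for a gap between the lines, which leaves more room for WT to fall between them. The shares of the genes that did not pass are thus no like background, and nearness was counted for called genes only.

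Markers of other cell types held 2 called genes, Acta2 and Vim, both higher in KO1. Acta2, the smooth muscle actin of peritubular myoid cells, was the 1 tested marker of that cell type and rose, with 10.3 and 9.08 RPM in KO1, 1.08 and 0.277 RPM in KO2, and 6.26 and 3.74 RPM in WT (log2 fold change 3.76 ± 0.63, adjusted p = 2.68e-05, edgeR, Benjamini-Hochberg). The 5 listed markers of that type summed to 12.7 and 12.2 RPM in KO1, 4.05 and 3.33 RPM in KO2, and 9.53 and 5.98 RPM in WT. Acta2 is in this sum and made its difference between the lines, to which the other listed markers of that type did not add. Vim, 1 of 10 tested fibroblast and feeder markers, was higher in KO1 (log2 fold change 0.75 ± 0.18, adjusted p = 0.0116). The 12 markers of that list summed to 118 and 119 RPM in KO1, 98.8 and 95.7 RPM in KO2, and 169 and 163 RPM in WT. Vim made up most of the difference of this sum between the lines, and 5 of the 10 tested members had a positive log2 fold change. Vim lost the call without either KO1 library (0.128 and 0.141) or KO2 replicate 2 (0.404) and with ERCC scaling. None of 5 tested Sertoli markers passed (smallest adjusted p = 0.0859, edgeR, Benjamini-Hochberg), and 4 of the 5 had a positive log2 fold change. Both KO1 libraries lay above both KO2 libraries for 3 of the 5 and below for 0, against 20.5% of all genes each way. The 4 knockout libraries alone gave 1 of them as higher in KO1. The 11 Sertoli markers found summed to 63.9 RPM in both KO1 libraries, 43.7 and 49.4 RPM in KO2, and 33.2 and 36.6 RPM in WT. Of the Leydig, endothelial and macrophage markers, 6 of 7, 1 of 5 and 4 of 6 were at 0 in all 6 libraries, and no group of them summed to over 9.78 RPM in a library. The part of these cells in the differences between the lines was not tested.

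Promoter composition was described for the called genes found in the RefSeq table, 53 of the 65 that rose and 26 of the 34 that fell. In the 250 bases before the start, the median number of CG dinucleotides was 13 for genes that rose, 8 for genes that fell and 17 over all 9637 tested genes in the table. The letters CACGTG, which read the same on both strands, occurred in 8 of the 53 windows (15.1%), in 1 of the 26 (3.85%) and in 9.04% of all. The letters TCCCGC, sought on both strands, occurred in 10 of the 53 (18.9%), in 6 of the 26 (23.1%) and in 32.4% of all. A match is a description of these letters in this window and no more.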

How the data were processed

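Libraries were made from amplified cDNA of 1 ng RNA, per the labels' protocols. The authors deposited whole read counts per gene for each library, and these counts were used as they stand. The submitters' processing notes name build GRCm38.p6 and, as tools, HTSeq 0.9.1, TopHat2 2.1.1, Salmon 1.4.0 and cutadapt 1.18. What each tool did, the strand setting and the use of molecular identifiers were not given in the sources used here. WT replicate numbers differ between titles and file names, and the titles were used.

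Spike-in and transgene entries and 10 genes with a blank count were left out. The 6 GSC libraries were fitted with edgeR 4.0.16 in R 4.3.3 (TMM scaling, genes kept by filterByExpr, 1 coefficient per group, quasi-likelihood test), and KO1 minus KO2 was tested over 11890 genes; p-values were adjusted after Benjamini-Hochberg, and a gene was called under 0.05. WT adds to the estimate of the spread. The procedure was first tested on simulated data. RPM were computed here from the counts, and given errors are the SE of the fit. With 3312252 to 4596607 counts a library, a count of 0 allows up to 0.748 to 1.05 RPM.

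Alternatives were DESeq2 1.42.0 as a test and as size factors, ERCC scaling, library totals, other filters, the robust option, a log2 threshold of 1, no mitochondrial genes, the 4 knockout libraries alone, a replicate block, and each library left out in turn. The gene lists, the tests and the rule for named genes were chosen with earlier results of these data known. The rule took, among called genes with libraries that do not overlap and at least 20 RPM in the higher line, the 15 largest rises and 15 largest falls, without Gm, Rik, LOC, mitochondrial and ribosomal protein names, then up to 4 called and 3 abundant members of each list. Genes with a mean under 1 RPM in one line and at least 10 RPM in the other were all named. Positions, overlaps and promoters come from RefSeq tables of GRCm38.p6; 35574 of 35652 gene IDs were found.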

Additional observations from a re-analysis of the deposited data

How the results depend on the processing

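Of the 17 alternatives, those that changed the scaling by DESeq2 size factors or library totals, left out mitochondrial genes, used the robust option or used no filter or a stricter one gave counts within 1.5 times the 65 higher and 34 lower genes. ERCC scaling gave 27 higher, the 4 knockout libraries alone gave 121 higher and 69 lower, and DESeq2 as the test gave 29 higher and 6 lower. A test against a log2 threshold of 1 gave 8 higher and 0 lower (edgeR, 92 genes at an unadjusted p under 0.05), and there Stag3, at 1.05, had an adjusted p of 1. Leaving out 1 library gave 30 to 122 higher genes and 9 to 67 lower, and a log2 fold change of Stag3 between 0.98 and 1.12. A fit that leaves a line with 1 library assumes that it varies like the other groups. Deviations of same-numbered libraries from their group means had correlations of -0.01, 0.06 and 0.01 over the genes tested. Counting noise weakens such correlations and the WT numbers are uncertain, so these values do not decide whether replicate numbers pair the libraries. With a replicate block the counts were 88 higher and 48 lower and Stag3 was at 1.05. The count was higher without a WT library and lower without a knockout library; the cause was not tested. For the 29 other genes among the 15 largest rises and 15 largest falls, 387 of 493 values stayed past the threshold, 106 did not and 0 changed direction. Of the 38 gene lists, 24 had a positive median log2 fold change. With ERCC scaling 17 of these fell below 0, and 0 lists changed sign the other way. That scaling moved the median of all genes from 0.00 to -0.16, so small positive medians had to cross 0. These sign changes therefore do not show how the lists stood against all genes. A count of 0 in 1 library allows up to 0.748 to 1.05 RPM, and genes under the count filter were not tested.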
